A study of Homo sapiens with 28 samples.

Results

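The genes described here are the sensors ERN1 and ATF6 of the unfolded protein response, the transcription factor XBP1, and 7 genes of folding, translocation and degradation at the endoplasmic reticulum (DNAJB9, SYVN1, EDEM1, SEL1L, DERL1, DERL2 and SEC61A1). They were chosen by name: every probe whose platform annotation gives one of these 10 symbols was taken, which found 13 of the 47231 probes of a human bead array, and all 10 of the genes among 18811 named genes. The measurements came from 28 arrays in 12 groups of JeKo-1 and Z138, established lines of mantle cell lymphoma, a malignancy of B cells. A course in JeKo-1 had 3 wells each at 0 h, untreated, and at 12, 24 and 36 h of ONC201, a drug that activates the mitochondrial protease CLPP; its labels hold no dose. Z138 cells, either parental and naive to ONC201 or ONC201-resistant, had 2 wells of each kind without drug and 2 with ONC201, at 5 µM over 24 h. In a further experiment JeKo-1 cells received 1 µM tunicamycin, an inhibitor of N-linked glycosylation, for 12 or 24 h, or 10 nM rapamycin, an inhibitor of the kinase complex mTORC1, for 24 h, beside a control harvested at 24 h, with 2 wells per group. All cultures grew in the same serum-containing medium, and those without drug received DMSO, the solvent of the compounds. Wells of an experiment were filled from a single stock culture of each line, so the p-values measure the spread between wells, and the labels do not say how the resistant cells were derived or whether they are clonal. Each experiment occupied a chip of its own and its groups followed each other in array position, so position and group cannot be told apart. The ONC201 course had no untreated wells after 0 h, so drug and hours in culture cannot be told apart in it.

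The unfolded protein response is started by transmembrane proteins that sense misfolded protein in the lumen of the reticulum. IRE1alpha, the product of ERN1, splices the XBP1 transcript so that it encodes an active transcription factor, while ATF6 moves to the Golgi, is cut there and releases a transcription factor of its own. Spliced XBP1 is known to raise genes for chaperones, for the import channel and for endoplasmic reticulum-associated degradation (ERAD), in which misfolded proteins are drawn back into the cytosol, tagged with ubiquitin and destroyed. In the B lineage XBP1 is best known for its part in building the secretory apparatus of plasma cells. The array measures total transcript: splicing of XBP1, cleavage of ATF6 and phosphorylation of IRE1alpha were not measured.

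Promoter sequences are shown for XBP1, because its transcript is itself a classical target of ATF6, and for DNAJB9 and SYVN1, which had the most different responses to ONC201 in JeKo-1 among the target genes. Each run is the 250 bases before the annotated start, 5′ to 3′ in the sense of the gene, from RefSeq on GRCh38.p14: chr22:28800570-28800819 on the minus strand for XBP1, chr7:108569624-108569873 on the plus strand for DNAJB9, and chr11:65134520-65134769 on the minus strand for SYVN1. Capitals mark the letters of the motifs searched on both strands.
XBP1: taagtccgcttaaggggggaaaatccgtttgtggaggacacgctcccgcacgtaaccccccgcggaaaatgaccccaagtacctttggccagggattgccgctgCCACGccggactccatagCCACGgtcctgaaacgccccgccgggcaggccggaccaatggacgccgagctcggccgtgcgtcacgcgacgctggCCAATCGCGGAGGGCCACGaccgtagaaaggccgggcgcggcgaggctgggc
DNAJB9: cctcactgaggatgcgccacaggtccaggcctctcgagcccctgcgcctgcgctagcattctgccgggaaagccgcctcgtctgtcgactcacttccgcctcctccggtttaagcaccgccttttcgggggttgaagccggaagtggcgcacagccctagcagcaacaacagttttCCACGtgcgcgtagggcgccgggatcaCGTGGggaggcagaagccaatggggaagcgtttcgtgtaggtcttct
SYVN1: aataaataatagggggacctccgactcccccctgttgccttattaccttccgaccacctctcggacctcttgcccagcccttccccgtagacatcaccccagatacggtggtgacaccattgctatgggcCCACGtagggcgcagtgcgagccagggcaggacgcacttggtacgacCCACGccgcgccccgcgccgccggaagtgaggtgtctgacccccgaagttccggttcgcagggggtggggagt
The endoplasmic reticulum stress element, searched as CCAAT and CCACG separated by 9 bases, occurred from base 52 to base 34 before the XBP1 start and in no other of the 9 members with a promoter in the table. Of all 35116 promoters, 26 (0.0740%) held it. Its half-site CCACG alone occurred in 5 of the 9 members (XBP1, DNAJB9, SYVN1, EDEM1 and SEL1L), against 33.5% of all promoters, and the XBP1 element contains one of the 3 XBP1 half-sites. The second form of the element (ATTGG and CCACG separated by 1 base, 0.0513% of promoters), the core TGACGTG of the XBP1-binding element (1.68%) and the ATF4 motif (TGATG and AA separated by 1 base, 3.14%) occurred in 0 of the 9. These matches describe letters in a window and no binding was measured.

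Array medians of the signal lay between 47.5 and 68.7 units, and an array detected 29.7% to 35.2% of its probes at a detection p under 0.01. Levels are given as log2 of the background-corrected, quantile-normalized signal, and they are not compared between genes, since each probe has its own brightness. The B-cell genes MS4A1, CD79A and CD79B and the mantle cell lymphoma gene SOX11 were detected on 28 of 28 arrays. The B-cell gene CD22 was detected on 22. The T-cell genes CD3D and CD3E and the myeloid gene LYZ were detected on 0. Other genes of these lists were detected on some arrays: the T-cell genes CD3G on 8, all Z138, and CD2 on 4, and the myeloid genes CD14 on 7 and CSF1R on 1. CCND1, whose cyclin defines mantle cell lymphoma, was detected on 8 arrays, all Z138, and on none of the 20 JeKo-1 arrays. Genes were tested with limma, and a gene is called higher or lower at a Benjamini-Hochberg adjusted p under 0.05 over all genes of a comparison. Of the 10 genes, 8 were detected on all 28 arrays, SEL1L on 14 and ERN1 on 2.

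Of the sensors, ERN1 was near the limit of the assay and ATF6 rose by at most 1.36-fold over untreated cells. ERN1 was detected on both arrays of parental Z138 cells with ONC201, at 5.60 and 5.49, and on no other array. The undetected levels were 4.79 and 4.85 in parental control, 4.91 and 4.43 in resistant control, 4.52 and 4.61 in resistant cells with ONC201, and 4.25 to 5.00 over the JeKo-1 arrays. The parental ONC201 arrays therefore lay above the other 26. ERN1 was at least 1.14-fold higher with ONC201 in parental Z138 (adjusted p = 0.0045, n = 2 arrays per group), a bound set by the lowest detected signal. It passed the detection filter only through that group, so it had to be higher there. In JeKo-1 it was not tested, and no fold is given where both groups are below detection.

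ATF6 was measured on every array. In the ONC201 course its levels were 8.74, 8.93 and 8.96 at 0 h, 9.07, 8.97 and 8.97 at 12 h, 9.03, 9.08 and 8.93 at 24 h, and 9.14, 9.27 and 9.20 at 36 h. The 36 h arrays lay above all others of the course, and ATF6 was higher there by 0.32 ± 0.08 (log2 change ± SE, adjusted p = 0.00372, n = 3 per group), a 1.25-fold difference. At 12 h the change was 0.12 ± 0.08 and at 24 h 0.13 ± 0.08, neither called. In Z138 the levels were 9.33 and 9.22 in parental control, 9.71 and 9.72 in parental cells with ONC201, 9.24 and 9.32 in resistant control, and 9.38 and 9.33 in resistant cells with ONC201. Only the parental cells with ONC201 stood apart, by 0.44 ± 0.09 over their control (adjusted p = 0.00428, n = 2 per group), against 0.08 ± 0.09 in resistant cells. The difference between those effects, -0.36 ± 0.12, was not called (adjusted p = 0.0581), though it was without background correction (adjusted p = 0.0321), with an offset of 50 (0.0397) and with a trended, robust variance (0.0282). Under tunicamycin ATF6 read 8.81 and 8.83 at 12 h and 8.95 and 8.80 at 24 h, all above the control arrays at 8.37 and 8.52. The changes of 0.38 ± 0.10 and 0.43 ± 0.10 were called (adjusted p = 0.0249 and 0.0119). Without control array 1 they were 0.30 (adjusted p = 0.128) and 0.35 (adjusted p = 0.0726), and without tunicamycin array 1 of either time, or array 2 of 12 h, the adjusted p rose to 0.0754 to 0.0996. The rapamycin arrays, at 8.45 and 8.50, lay within the control range, with a change of 0.03 ± 0.10.

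**Figure D1:**
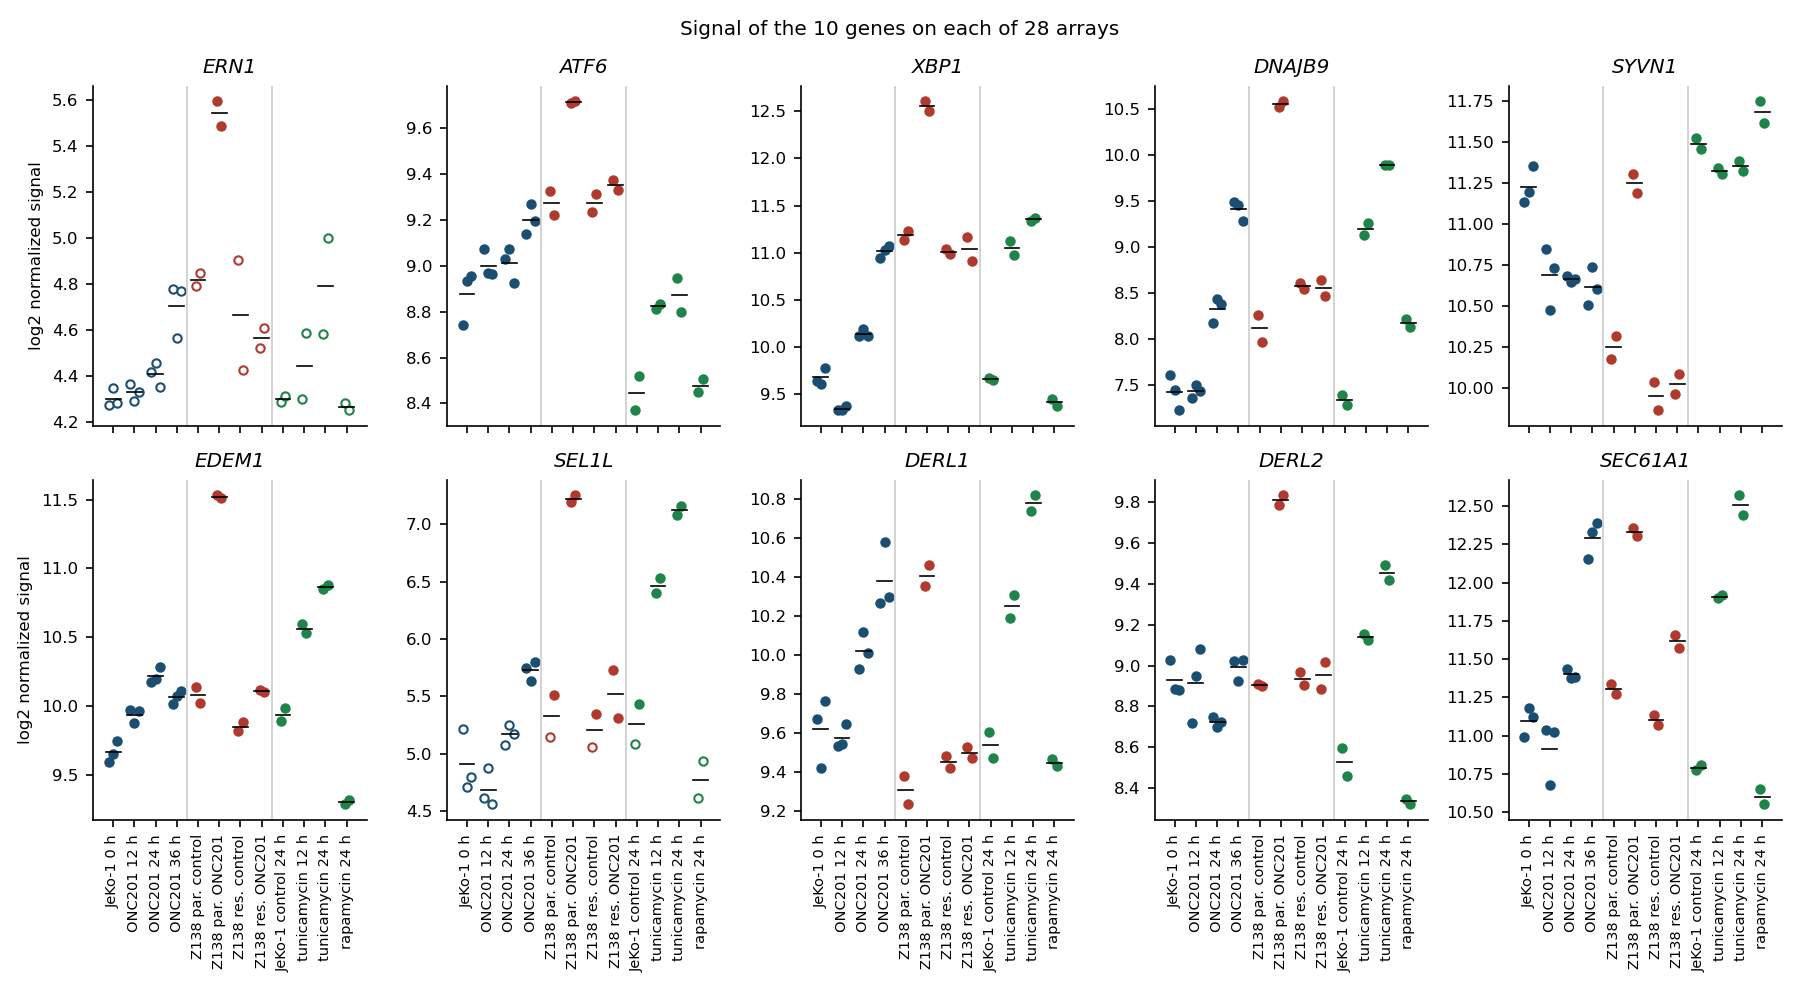
Log2 normalized signal of each gene (brightest probe) on the 28 arrays, by group; blue is the JeKo-1 ONC201 course, red Z138 (par., parental; res., resistant) and green JeKo-1 with tunicamycin or rapamycin. Each point is an array, filled where the probe was detected, and a line marks the group mean; each panel has its own scale. XBP1 reads 9.33 to 9.38 at 12 h with ONC201 and 10.95 to 11.07 at 36 h, while ATF6 stays between 8.37 and 9.72 on all arrays.

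XBP1 fell first and rose later over the ONC201 course. Its levels were 9.64, 9.61 and 9.77 at 0 h, 9.33, 9.33 and 9.38 at 12 h, 10.12, 10.19 and 10.11 at 24 h, and 10.95, 11.03 and 11.07 at 36 h. The 4 groups did not overlap, the 12 h arrays being the lowest. Against 0 h, XBP1 fell by 0.33 ± 0.07 at 12 h (adjusted p = 0.0178) and was higher by 0.46 ± 0.07 at 24 h (adjusted p = 2.05e-04) and by 1.34 ± 0.07 at 36 h (adjusted p = 1.82e-08), a 2.53-fold rise (n = 3 per group). The fall at 12 h was not called without array 3 of 0 h, array 1 of 12 h or array 2 of 12 h (adjusted p = 0.0594 to 0.0676), where it was -0.28 to -0.32. From 12 to 24 h XBP1 rose by 0.79 ± 0.07 and from 24 to 36 h by 0.87 ± 0.07, both called. The times differ in how many genes moved at all: 3.82% of the genes tested were called at 12 h, 38.3% at 24 h and 51.0% at 36 h against 0 h, 20.7% from 12 to 24 h and 14.5% from 24 to 36 h. A moderated F test over the 3 times called 51.3% of genes and called 8 of the 9 members tested, all but DERL2.

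DNAJB9, an Hsp40 co-chaperone of the reticulum that binds IRE1alpha and is a classical XBP1 target, rose most of the members in the course, and later than the fall of XBP1. It read 7.61, 7.44 and 7.22 at 0 h and 7.36, 7.49 and 7.44 at 12 h, which overlap. It then read 8.18, 8.44 and 8.38 at 24 h and 9.49, 9.46 and 9.28 at 36 h, each group above the one before. The change was 0.01 ± 0.10 at 12 h (not called), 0.91 ± 0.10 at 24 h (adjusted p = 4.82e-05) and 1.99 ± 0.10 at 36 h (adjusted p = 3.37e-08), a 3.96-fold rise.

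SYVN1, which encodes HRD1, the ubiquitin ligase at the centre of ERAD, went the other way. It read 11.13, 11.19 and 11.35 at 0 h, 10.84, 10.48 and 10.73 at 12 h, 10.68, 10.64 and 10.67 at 24 h, and 10.51, 10.73 and 10.60 at 36 h. All 9 treated arrays lay below the 0 h arrays and the treated groups overlapped one another. SYVN1 fell by 0.54 ± 0.10 at 12 h (adjusted p = 0.0121), by 0.56 ± 0.10 at 24 h and by 0.61 ± 0.10 at 36 h (adjusted p = 2.66e-04), and changed by -0.02 ± 0.10 from 12 to 24 h and by -0.05 ± 0.10 from 24 to 36 h. SEL1L, the adaptor that holds HRD1 in its complex, was undetected on the 9 arrays of 0, 12 and 24 h (4.56 to 5.25) and detected on the 3 arrays of 36 h at 5.75, 5.63 and 5.80. At 36 h it was at least 1.16-fold higher than at 0 h (adjusted p = 1.79e-04). SEL1L passed the filter in the course only through the 36 h arrays, so it had to be higher there.

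EDEM1, a lectin that passes misfolded glycoproteins on to degradation, was the earliest member to rise. It read 9.59, 9.65 and 9.75 at 0 h, 9.97, 9.88 and 9.96 at 12 h, 10.17, 10.20 and 10.29 at 24 h, and 10.01, 10.07 and 10.11 at 36 h. The treated arrays were all above the 0 h arrays, the 24 h arrays being the highest. EDEM1 rose by 0.27 ± 0.07 at 12 h (adjusted p = 0.0432), by 0.55 ± 0.07 at 24 h and by 0.40 ± 0.07 at 36 h (adjusted p = 3.25e-04). The 12 h call was lost when any array of either group other than array 3 of 0 h was left out, with changes of 0.24 to 0.30 and adjusted p = 0.069 to 0.129. The step from 24 to 36 h was -0.15 ± 0.07 and not called.

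The derlins, membrane proteins of the ERAD channel, differed from each other. DERL1 read 9.42 to 9.76 at 0 h, 9.53 to 9.64 at 12 h, 9.93 to 10.12 at 24 h and 10.27 to 10.58 at 36 h, and was called at 24 h (0.40 ± 0.10) and 36 h (0.76 ± 0.10). DERL2 stayed between 8.70 and 9.08 over all 12 arrays. Its changes of -0.01 ± 0.09, -0.21 ± 0.09 and 0.06 ± 0.09 were not called. SEC61A1, the pore subunit of the channel that imports new proteins, read 10.99, 11.18 and 11.12 at 0 h, 11.04, 10.68 and 11.02 at 12 h, 11.44, 11.38 and 11.39 at 24 h, and 12.15, 12.33 and 12.39 at 36 h. The 24 h and 36 h arrays lay above the earlier ones without overlap. SEC61A1 rose by 0.30 ± 0.10 at 24 h (adjusted p = 0.0333) and by 1.19 ± 0.10 at 36 h (adjusted p = 1.59e-06). The 24 h call was lost when any array of either group other than array 2 of 0 h was left out, with changes of 0.25 to 0.31 and adjusted p = 0.0589 to 0.111.

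Over the 9 members tested, 1 was higher and 2 lower at 12 h, 5 higher and 1 lower at 24 h, and 7 higher and 1 lower at 36 h. The shares of all genes called at these times were 3.82%, 38.3% and 51.0%. SEL1L is among the 7, where the filter required it to be. The median change of the 7 non-sensor genes detected on every array (all but SEL1L) was -0.05 at 12 h, 0.40 at 24 h and 0.76 at 36 h, beside 0.00 for all genes at each time. ATF6, the one sensor tested, stood at 0.12, 0.13 and 0.32. From 12 to 24 h 6 of the 9 were higher and 0 lower, against 20.7% of all genes called. From 24 to 36 h 5 were higher and 0 lower, against 14.5%. SEL1L, among the 6 and the 5, was below detection at 12 and 24 h, and in the earlier step it was not called without array 1 or 3 of 12 h or array 2 of 24 h (adjusted p = 0.0575 to 0.0682). DERL1, among the 5, rose by 0.36 ± 0.10 and was not called without array 1 or 3 of 24 h or array 2 or 3 of 36 h (adjusted p = 0.0574 to 0.141). Of the plasma cell genes SDC1, PRDM1, IRF4 and MZB1, 0 were called at 12 h, and 1 was higher and 1 lower at 24 h. At 36 h 2 were called higher (IRF4 by 0.86 ± 0.10 and MZB1 by 0.36 ± 0.08), against 51.0% of all genes called. The summed signal of the 4 was 2629 to 2853 units at 0 h, 2338 to 2424 at 12 h, 2451 to 2605 at 24 h and 3425 to 4158 at 36 h. The B-cell genes moved down in the course: of the 4 tested (MS4A1, CD79A, CD79B and CD22), 1 was called lower at 12 h and 3 at 24 h and at 36 h, where MS4A1 fell by 1.44 ± 0.11. Their summed signal was 18156 to 20529 units at 0 h, 16031 to 17665 at 12 h, 14022 to 15346 at 24 h and 11244 to 11762 at 36 h. The part of either list in the result was not tested.

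**Figure D2:**
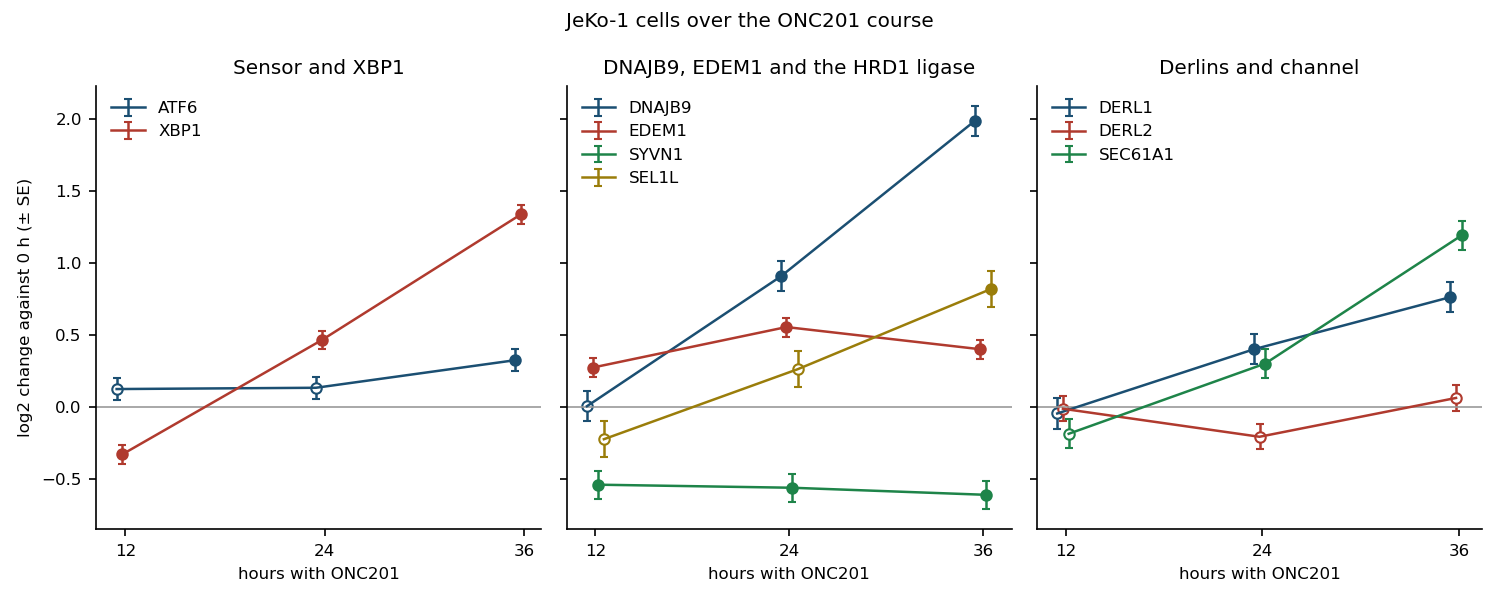
Log2 change against 0 h (vertical axis, ± SE) by hours with ONC201 (horizontal axis, points set slightly apart) for the 9 members tested in JeKo-1, n = 3 arrays per group; filled points passed an adjusted p under 0.05. DNAJB9, XBP1 and SEC61A1 reach 1.99, 1.34 and 1.19 at 36 h, ATF6 0.32, DERL2 0.06 and SYVN1 -0.61; SEL1L is drawn from signals below detection before 36 h.

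In parental Z138 cells ONC201 raised the whole set at 24 h, and in resistant cells none of it was called. XBP1 read 11.14 and 11.23 in parental control and 12.60 and 12.50 with ONC201, while it read 11.04 and 10.98 in resistant control and 11.17 and 10.91 with ONC201. The parental treated arrays stood above the other 6, which lay within 10.91 to 11.23. XBP1 was higher by 1.37 ± 0.11 in parental cells (adjusted p = 5.14e-05) and changed by 0.03 ± 0.11 in resistant cells (adjusted p = 0.906, n = 2 per group). DNAJB9 read 8.26 and 7.97 in parental control and 10.52 and 10.58 with ONC201, against 8.61 and 8.54 in resistant control and 8.64 and 8.46 with ONC201. Its rise of 2.44 ± 0.12 (5.41-fold) was the largest of the set in parental cells, and its change in resistant cells was -0.03 ± 0.12.

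SYVN1, lower in JeKo-1 with ONC201, was higher here. It read 10.18 and 10.32 in parental control, 11.30 and 11.19 with ONC201, 10.03 and 9.86 in resistant control, and 9.97 and 10.09 in resistant cells with ONC201. The parental treated arrays lay above all others, by 1.00 ± 0.11 over their control (adjusted p = 1.79e-04). SEL1L, at 5.15 and 5.51 in parental control with 1 array detected, read 7.19 and 7.25 with ONC201, a rise of 1.89 ± 0.17 that lay between 1.11 and 2.08 over the other settings and with an array left out. EDEM1 rose by 1.44 ± 0.09, from 10.14 and 10.02 to 11.53 and 11.51. DERL1 rose by 1.10 ± 0.09, SEC61A1 by 1.03 ± 0.09 and DERL2, which was not called with ONC201 in JeKo-1, by 0.90 ± 0.09, from 8.91 and 8.90 to 9.78 and 9.83. In every one of these genes the parental treated arrays and their controls did not overlap. Between untreated resistant and parental cells 6 of the 10 members did not overlap either, although 0 were called. With 2 arrays per group, a lack of overlap is therefore no result on its own. Its share over all genes was not computed.

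In parental cells 10 of 10 members were called higher, against 44.8% of all genes called, and 9 of 9 when ERN1 is set aside. The median was 1.10 for the 7 non-sensor genes detected on every array, beside 0.44 for ATF6 and 0.00 for all genes. In resistant cells 0 of 10 were called, against 0.487% of all genes (46 called, and 1864 at an unadjusted p under 0.05). The largest change there was that of SEC61A1, from 11.14 and 11.07 to 11.66 and 11.57, by 0.51 ± 0.09 (adjusted p = 0.0505). Its 4 arrays did not overlap, and it was called under 4 of the other settings tried. EDEM1, at 9.82 and 9.89 against 10.12 and 10.11, did not overlap either, with a change of 0.26 ± 0.09 that was not called.

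The effect in resistant cells minus that in parental cells was called lower for 9 of the 10, against 30.5% of all genes called. It was -2.46 ± 0.17 for DNAJB9, -1.58 ± 0.24 for SEL1L, -1.34 ± 0.15 for XBP1 and -0.51 ± 0.12 for SEC61A1, while the -0.36 of ATF6 was the one difference not called. ERN1 is among the 9 and gets no value, as it was undetected in 3 of the 4 groups and passed the filter only through parental cells with ONC201. Its call was lost without background correction (adjusted p = 0.0518), with the authors' values (0.119), with a trended, robust variance (0.0545), and without parental ONC201 array 1 (0.0619) or resistant ONC201 array 1 (0.053). The SEL1L difference lay between -1.78 and -0.96 over the other settings and with an array left out. The SEC61A1 call was lost without parental ONC201 array 1, resistant control array 1 or resistant ONC201 array 2 (-0.47 to -0.49, adjusted p = 0.0509 to 0.0538). Without drug, the resistant and parental cells differed in 0 of 10 members by limma, where 3.91% of all genes were called (370 called, and 1713 at an unadjusted p under 0.05). DNAJB9 was the farthest, 0.46 ± 0.12 higher in resistant cells without overlap of the arrays (adjusted p = 0.0744), and it was called under 3 of the other settings. Of the plasma cell genes SDC1, PRDM1, IRF4 and MZB1, 3 were called higher with ONC201 in parental cells, against 44.8% of all genes called. They were PRDM1 (by 1.55 ± 0.11), IRF4 (by 1.12 ± 0.10) and MZB1 (by 0.93 ± 0.11), while SDC1 was not called. In resistant cells 0 of the 4 were called, against 0.487% of all genes. The summed signal of the 4 was 3666 to 3671 units in parental control, 6851 to 7265 with ONC201, 3479 to 3629 in resistant control and 3557 to 3603 in resistant cells with ONC201. Of the 4 B-cell genes, MS4A1 and CD79B were called lower with ONC201 in parental cells (by 1.61 ± 0.15 and 0.45 ± 0.11) and 0 were called in resistant cells. They summed to 6012 to 7100 units in parental control, 5633 to 6032 with ONC201, 6381 to 6572 in resistant control and 6424 to 7381 in resistant cells with ONC201. The part of either list in the result was not tested.

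Tunicamycin in JeKo-1 raised XBP1 and most of its targets at both times. XBP1 read 9.67 and 9.65 in control, 11.13 and 10.98 at 12 h, 11.34 and 11.37 at 24 h, and 9.45 and 9.38 with rapamycin. The tunicamycin arrays lay above the control and the rapamycin arrays below it. XBP1 was higher by 1.39 ± 0.09 at 12 h (adjusted p = 1.03e-04) and by 1.69 ± 0.09 at 24 h (adjusted p = 1.63e-05, n = 2 per group). With rapamycin its change of -0.25 ± 0.09 was not called (adjusted p = 0.0775). It was called lower by limma without background correction (adjusted p = 0.0491) and with a trended, robust variance (0.0158). The mean of its probes was also called lower (-0.35, adjusted p = 0.0188). The untreated control was harvested at 24 h, so the 12 h comparison sets cells of different harvest times against each other.

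DNAJB9 read 7.39 and 7.29 in control, 9.14 and 9.26 with tunicamycin at 12 h, 9.89 and 9.89 at 24 h, and 8.21 and 8.13 with rapamycin. It rose by 1.86 ± 0.09 and 2.55 ± 0.09 with tunicamycin (3.63-fold and 5.86-fold). It was also the one member called higher with rapamycin, by 0.84 ± 0.09 (adjusted p = 0.00107), with all arrays of the 4 groups apart. EDEM1 split the drugs: it read 9.89 and 9.99 in control, 10.60 and 10.53 at 12 h, 10.85 and 10.88 at 24 h, and 9.29 and 9.32 with rapamycin. It rose by 0.62 ± 0.08 and 0.93 ± 0.08 with tunicamycin and fell by 0.63 ± 0.08 with rapamycin (adjusted p = 0.00231).

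SYVN1 did not rise with tunicamycin. It read 11.52 and 11.46 in control, 11.34 and 11.30 at 12 h, 11.38 and 11.32 at 24 h, and 11.75 and 11.61 with rapamycin, with tunicamycin below and rapamycin above the control arrays. The changes of -0.17 ± 0.09, -0.14 ± 0.09 and 0.19 ± 0.09 were not called. SEL1L, detected on 1 control array (5.08 and 5.43), read 6.40 and 6.53 at 12 h and 7.08 and 7.16 at 24 h with tunicamycin, and was undetected with rapamycin at 4.61 and 4.93. It rose by 1.21 ± 0.15 and 1.87 ± 0.15 with tunicamycin, and by 0.63 to 1.38 and 1.07 to 2.04 over the other settings and with an array left out. SEL1L passed the filter in this experiment only through tunicamycin arrays, so the filter favoured a rise there.

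SEC61A1 rose by 1.12 ± 0.09 at 12 h and 1.71 ± 0.09 at 24 h, from 10.78 and 10.81 to 12.57 and 12.44 at 24 h. DERL1 rose by 0.71 ± 0.09 and 1.24 ± 0.09 and DERL2 by 0.61 ± 0.09 and 0.93 ± 0.09. None of these 3 was called with rapamycin, where they changed by -0.19 ± 0.09, -0.09 ± 0.09 and -0.19 ± 0.09.

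With tunicamycin 8 of the 9 members tested were higher and 0 lower at both times, against 25.5% of all genes called at 12 h and 32.6% at 24 h. SEL1L is among those called and passed the filter only through tunicamycin arrays, which favoured a rise there. Of the 8 genes detected on every array, 7 were higher at both times. The median of the 7 non-sensor genes detected on every array was 0.71 at 12 h and 1.24 at 24 h, while ATF6 stood at 0.38 and 0.43. From 12 to 24 h 3 of the 9 were higher, DNAJB9 by 0.69 ± 0.09, SEC61A1 by 0.60 ± 0.09 and DERL1 by 0.53 ± 0.09, against 4.05% of all genes, and each of these calls was lost whichever of the 4 arrays was left out (for DNAJB9 adjusted p = 0.0505 to 0.0706). With rapamycin 1 was higher and 1 lower, against 24.5% of all genes, and the median of the same 7 genes was -0.19. Tunicamycin against rapamycin at 24 h was called for 9 of 9, against 34.6% of all genes: SYVN1 was lower by 0.33 ± 0.09 under tunicamycin and the other 8 were higher, from 0.40 ± 0.10 for ATF6 to 1.94 ± 0.09 for XBP1 among the genes detected on every array. The SYVN1 call was lost without either tunicamycin array or rapamycin array 1 (-0.26 to -0.36, adjusted p = 0.0646 to 0.115), and that of ATF6 without array 1 of tunicamycin or of rapamycin (0.32 and 0.37, adjusted p = 0.0894 and 0.069). SEL1L, tested only through tunicamycin arrays, was at least 3.50-fold higher, a bound since no rapamycin array detected it. The 4 plasma cell genes summed to 3741 to 4055 units in control, 4014 to 4399 at 12 h, 5253 to 6145 at 24 h with tunicamycin and 3594 to 3701 with rapamycin. At 12 h with tunicamycin 1 of the 4 was called higher and 1 lower. At 24 h PRDM1 and MZB1 were called higher with tunicamycin and 0 of the 4 with rapamycin. Of the 4 B-cell genes, CD79A was called higher with tunicamycin at 12 h (by 0.27 ± 0.08), MS4A1 lower at 24 h (by 0.78 ± 0.19) and all 4 higher with rapamycin. Their sums were 15528 to 16014 units in control, 16215 to 16419 at 12 h, 16421 to 17071 at 24 h and 19336 to 20111 with rapamycin. The part of either list in the result was not tested.

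**Figure D3:**
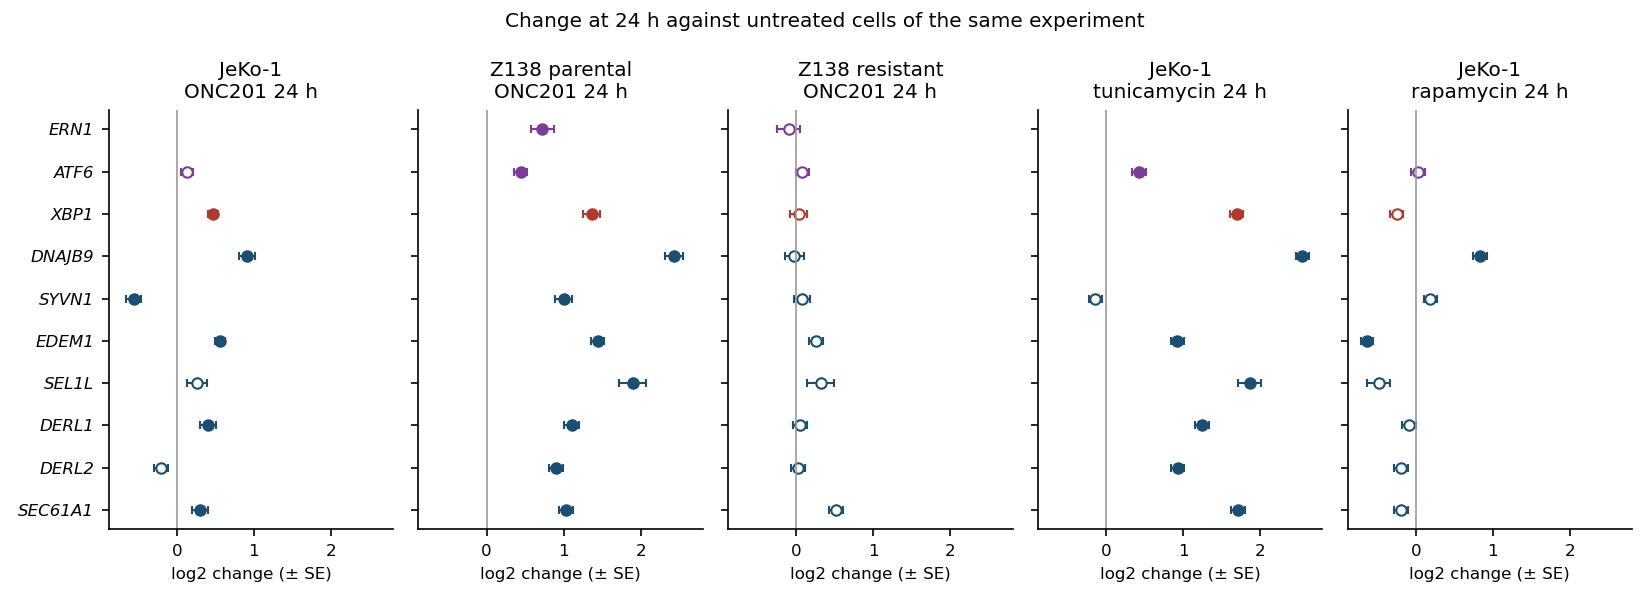
Log2 change at 24 h against untreated cells of the same experiment (horizontal axis, ± SE) for each member (vertical axis) in 5 comparisons, n = 3 arrays per group for JeKo-1 with ONC201 and 2 elsewhere; purple marks sensors, red XBP1 and blue its targets, and filled points passed an adjusted p under 0.05. SYVN1 stands at -0.56 in JeKo-1 and 1.00 in parental Z138 with ONC201, and ERN1 was tested in Z138 alone; the ERN1 points, and those of SEL1L in JeKo-1 with ONC201 or rapamycin, include groups below detection and give no fold.

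The drugs were also compared through the difference of their effects, each against untreated cells of its own chip. The doses are not matched, since none is given for the ONC201 course, and the untreated cells were harvested at 0 h in one experiment and at 24 h in the other. At 12 h the ONC201 effect was lower than that of tunicamycin for 7 of 9 members, against 20.9% of all genes called, with differences of -1.86 ± 0.15 in DNAJB9, -1.72 ± 0.10 in XBP1 and -1.30 ± 0.14 in SEC61A1. XBP1 was thus lower than untreated at 12 h with ONC201 and higher with tunicamycin. At 24 h it was lower for 8 of 9, against 26.6% of all genes, by 1.64 ± 0.15 for DNAJB9, 1.41 ± 0.14 for SEC61A1, 1.23 ± 0.10 for XBP1 and 1.14 ± 0.13 for DERL2. SEL1L is counted at both times and gets no value, as no array of its ONC201 comparisons detected it; among the 8 genes detected on every array 6 were lower at 12 h and 7 at 24 h. ATF6 was not called at either time (-0.25 ± 0.12 and -0.30 ± 0.12), and SYVN1, at -0.37 ± 0.14 and -0.42 ± 0.14, was called at 24 h (adjusted p = 0.0324). That call was lost in 7 of the 10 fits that left out 1 array, namely array 3 of 0 h, array 2 or 3 of 24 h with ONC201, and any control or tunicamycin array (-0.36 to -0.46, adjusted p = 0.0511 to 0.106). The EDEM1 call at 12 h (-0.35 ± 0.10) was lost without control array 1 or tunicamycin array 1 (adjusted p = 0.0793 and 0.0678).

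The ONC201 effect at 24 h minus that of rapamycin was called for 6 of 9, against 32.3% of all genes. SEL1L is among the 6 and gets no value, since it was undetected at 0 and 24 h with ONC201 and with rapamycin. EDEM1 (1.19 ± 0.10), XBP1 (0.71 ± 0.10), DERL1 and SEC61A1 (0.49 ± 0.15 and 0.49 ± 0.14) were higher with ONC201, and SYVN1 was lower (-0.75 ± 0.14). Without control array 1 or rapamycin array 2 DERL1 was not called (adjusted p = 0.0848 and 0.0586), nor was SEC61A1 without rapamycin array 2 (adjusted p = 0.0623). The DNAJB9 effects differed by 0.07 ± 0.15, which was not called, each drug having raised it. The ONC201 effect at 24 h in JeKo-1 minus that in parental Z138 was lower for 9 of 9, against 27.4% of all genes, by 1.56 ± 0.14 for SYVN1, 1.53 ± 0.15 for DNAJB9 and 1.11 ± 0.12 for DERL2. The 9 include SEL1L, undetected in JeKo-1 at 0 and 24 h and so given no value, beside the 8 genes detected on every array. It was lower by 0.31 ± 0.11 for ATF6 (adjusted p = 0.0396). That call was lost in 7 of the 10 fits that left out 1 array: array 2 or 3 of 0 h, array 1 or 3 of 24 h, parental control array 2 and either parental ONC201 array (-0.26 to -0.32, adjusted p = 0.0516 to 0.154). Line, dose, chip and the harvest time of the untreated cells (0 h in JeKo-1, 24 h in Z138) cannot be told apart in this comparison.

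Second probes of 3 genes mostly ran the same way. The second XBP1 probe fell at 12 h with ONC201 by 0.42 ± 0.11 without a call (adjusted p = 0.0743), rose by 1.33 ± 0.11 at 36 h, by 1.29 ± 0.10 in parental Z138 and by 1.75 ± 0.09 with tunicamycin at 24 h. It was called lower with rapamycin (-0.45 ± 0.09, adjusted p = 0.0135), where the brighter probe was not. The probe sequences were not used here, so the spliced and unspliced forms of XBP1 cannot be told apart. The second SYVN1 probe changed by -0.35 ± 0.13 at 12 h (not called) and fell by 0.77 ± 0.13 at 36 h, rose by 0.81 ± 0.11 in parental Z138, and was level between tunicamycin and rapamycin (0.00 ± 0.16), where the brighter probe was called lower. The second DERL2 probe was called higher in parental Z138 (1.09 ± 0.13) and with tunicamycin at 24 h (1.05 ± 0.11) and not called in the ONC201 course.

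Lists of related genes were counted in the same way. Of 22 other ERAD genes tested, 0 were higher and 2 lower at 12 h with ONC201 in JeKo-1, 4 higher and 5 lower at 24 h, and 9 higher and 5 lower at 36 h (median 0.05), near or above the 3.82%, 38.3% and 51.0% of all genes called. EDEM2, a further mannosidase-related protein, rose by 0.95 ± 0.09 and the Derlin-associated SELENOS by 0.77 ± 0.08 at 36 h, while VCP, the ATPase that extracts substrates from the membrane, fell by 0.72 ± 0.09 and its cofactor UFD1 by 0.74 ± 0.08. The ERAD list had 9 of 22 higher and 0 lower in parental Z138 (median 0.28), against 44.8% of all genes called, and 10 higher and 0 lower with tunicamycin at 24 h (median 0.26), against 32.6%. In resistant Z138 it had 0 called of 22, against 0.487%, and with rapamycin 4 higher and 0 lower, against 24.5%. These shares of all genes count both directions. In parental Z138 2158 of 9453 genes were higher and 2074 lower. With tunicamycin at 24 h 1641 of 9517 were higher and 1460 lower, and with rapamycin 1138 and 1198. The number of list genes called is, beside these shares, no result about the list. Its calls in these 3 comparisons were all higher, where those of all genes went both ways. The direction was not tested.

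Of 20 genes of translocation and signal peptide removal, 13 were higher and 1 lower at 36 h with ONC201, 18 higher and 1 lower in parental Z138, 15 higher and 2 lower with tunicamycin at 24 h, and 0 higher and 1 lower with rapamycin, beside the same shares of all genes (51.0%, 44.8%, 32.6% and 24.5%). SSR3, one of the 20 tested, was undetected at 0 and 12 h with ONC201. It passed the filter in the course only through the 24 h and 36 h arrays, so it had to be higher there. SSR2, a subunit of the translocon-associated complex, rose by 1.08 ± 0.08 at 36 h and by 1.05 ± 0.09 in parental Z138. SRPRB, a subunit of the receptor for the signal recognition particle, rose by 1.17 ± 0.09 with tunicamycin at 24 h.

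The folding chaperones known as targets of ATF6 and XBP1 differed from the set at 24 h in JeKo-1, where 0 of 10 were higher and 7 lower with ONC201 (median -0.65), against 38.3% of all genes called in either direction. HSPA5 (BiP), the Hsp70 of the reticulum, fell by 1.25 ± 0.08 and SDF2L1, a partner of DNAJB11 also counted in the ERAD list, by 1.37 ± 0.10, at a time when DNAJB9 and XBP1 were higher. All 10 were higher at 36 h than at 24 h, against 14.5% of all genes called. Against 0 h at 36 h 4 were higher and 3 lower, beside 51.0% of all genes called. In parental Z138 10 of 12 were higher and 0 lower, against 44.8%. With tunicamycin at 24 h 11 of 12 were higher and 0 lower, against 32.6%. DNAJC3, one of the 12 tested there, was undetected in control and with rapamycin. It passed the filter only through tunicamycin arrays, so it had to be higher there. HYOU1, a large Hsp70-related chaperone, rose by 1.62 ± 0.11 in parental Z138 and by 2.45 ± 0.17 with tunicamycin.

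Among other sensors and their processing genes, 4 of 7 were higher and 1 lower at 36 h with ONC201, 5 of 7 higher and 0 lower both in parental Z138 and with tunicamycin at 24 h, against 51.0%, 44.8% and 32.6% of all genes called. CREB3L2, a relative of ATF6 cut in the Golgi in the same manner, rose by 1.13 ± 0.09, 1.08 ± 0.10 and 1.42 ± 0.12 in those comparisons. EIF2AK3, which encodes the third sensor PERK, rose by 0.70 ± 0.13, 0.72 ± 0.14 and 1.15 ± 0.10. The 8 genes known downstream of PERK were all higher with ONC201 at 24 h and 36 h, in parental Z138 and with tunicamycin. The activity of PERK itself was not measured, so these counts are no measure of it. The shares of all genes called were 38.3%, 51.0%, 44.8% and, with tunicamycin, 25.5% at 12 h and 32.6% at 24 h. CHAC1 and SESN2 were undetected at 0 h and passed the filter in the course only through treated arrays, so they had to be higher there. With rapamycin all 8 were lower, against 24.5% of all genes called, where XBP1 was not called and DNAJB9 was higher. ATF3, CHAC1 and SESN2 were undetected with rapamycin. At 12 h with ONC201, when XBP1 was lower, 6 of the 8 were higher, against 3.82% of all genes called.

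**Figure D4:**
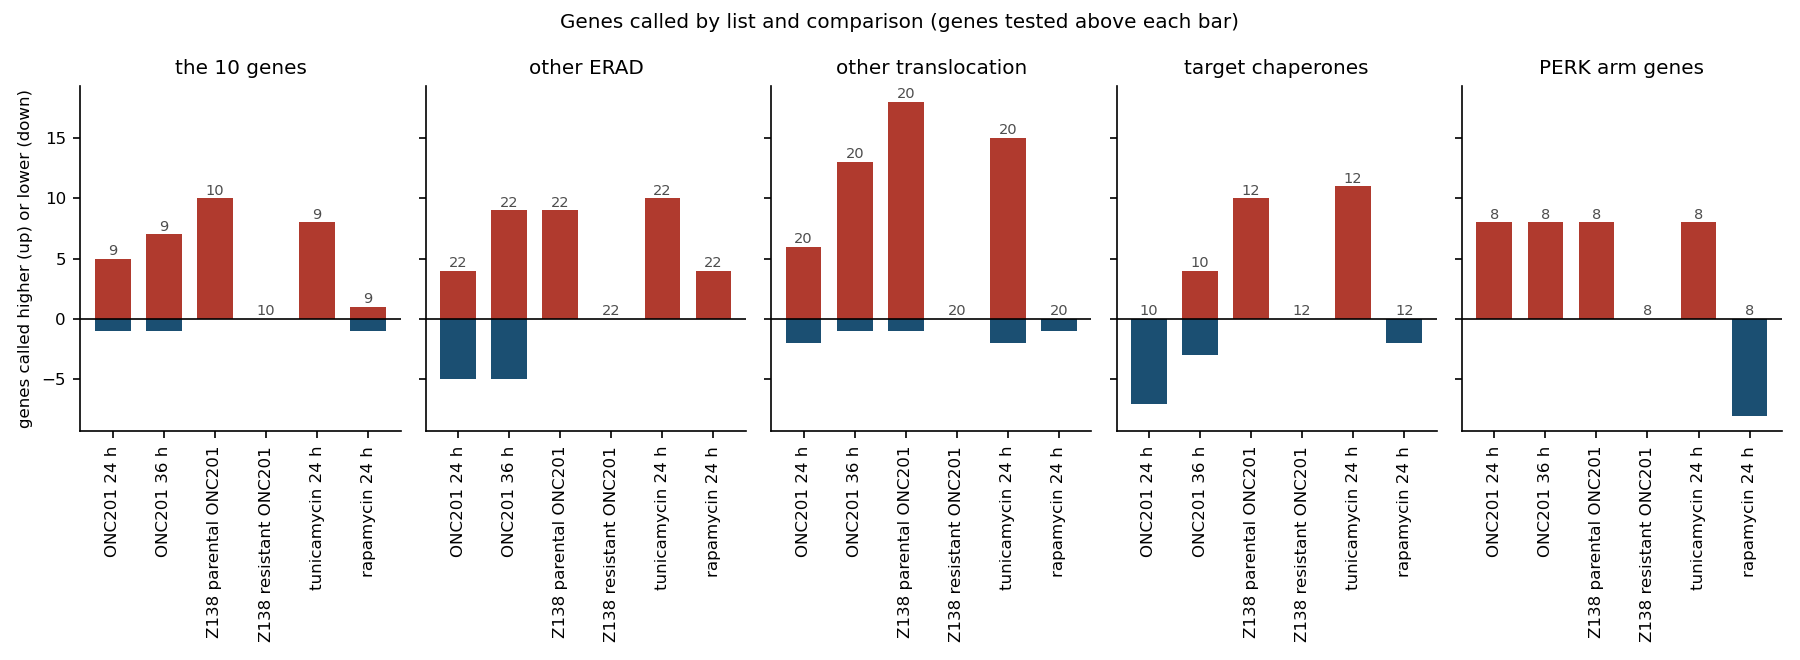
Number of genes called higher (red, upward) and lower (blue, downward) in 6 comparisons against untreated cells, for the 10 genes and 4 lists of related genes; the digits over each bar give the number tested. The chaperone list has 7 genes lower at 24 h with ONC201 in JeKo-1 and 10 higher in parental Z138, and no list has a gene called in resistant Z138.

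The profile of XBP1 over the 12 group means, each centred on its experiment, was set against those of the 8164 genes tested in all 3 experiments. Nearest by root mean square difference (log2) were TCEA1, a transcription elongation factor (0.147), GFPT1, the first enzyme of the hexosamine pathway (0.151), SLC33A1, the acetyl-CoA transporter of the reticulum (0.165), TRIM2, a ubiquitin ligase (0.185), and GOT1, the cytosolic aspartate aminotransferase (0.192). XBP1 itself departed from its experiment means by 0.712. Within the set SEC61A1 ranked 6 (0.195) and SEL1L, undetected on 14 of the arrays, 9 (0.207), then DERL1 61, DNAJB9 113, EDEM1 144 and DERL2 311, while ATF6 ranked 834 and SYVN1 3820. ATF6 departed from its means by 0.168, and its nearest genes were EXOSC1 (0.0496), UBR4, TLK2, CDC16 and PQBP1. ERN1 was not ranked, as it was not tested in JeKo-1.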

How the data were processed

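RNA of 28 cultures was hybridised to HT-12 bead arrays, and the submitters' processing notes name GenomeStudio. Per the file headers, the deposited table used here gives each of 47231 probes a mean bead intensity per array, without background correction, and a detection p-value. Another deposited table holds the background-subtracted intensity, which was not used. The authors' normalized intensity, whose method is not stated in the sources used, served as an alternative.

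The signals were corrected and normalized together with neqc of limma 3.58.1 (R 4.3.3, data.table version 1.17.8), which infers background from the detection p-values, adds an offset of 16, quantile-normalizes and takes log2. Probes were kept at a detection p under 0.01 on at least 3 arrays of the ONC201 course, or 2 of either other experiment. Each gene took its brightest probe over all arrays. Of the probes 27004 carry 1 gene symbol, 4 several and 20223 none.

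Each experiment was fitted over its own groups with limma's moderated tests, with Benjamini-Hochberg adjustment over all genes and a threshold of 0.05. Differences of effects between experiments used 20 or 28 arrays. A bound compares the detected group with the higher of the lowest detected signal and the probe's own level on each array of the other group. Members and gene lists were chosen with earlier results of these data known, so no test over a list is given. The text names all members, and per list up to 3 genes with the largest called change. TRAF2, HERPUD1, ERLEC1, UBE2J1, SEC61G and SEC62 were not analysed here. Replicate numbers did not pair arrays: of 18, 12 and 12 same-numbered pairs in the experiments, 1, 0 and 0 had deviations correlated above 0.1. Where a group has 2 arrays their deviations from its mean mirror each other. The 12 pairs of such an experiment therefore hold repeated values and are not independent. The number of arrays limits the precision. The fits were tested on simulated data. The plots were made in Python 3.11.15 (matplotlib 3.10.9).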

Additional observations from a re-analysis of the deposited data

Results flagged for a closer look

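The ONC201 effect differed between resistant and parental Z138 cells by a test of the difference itself (limma, n = 2 arrays per group), resistant minus parental, in 8 members measured on both sides: DNAJB9 (-2.46 ± 0.17), SEL1L (-1.58 ± 0.24), XBP1 (-1.34 ± 0.15), EDEM1 (-1.18 ± 0.12), DERL1 (-1.05 ± 0.13), SYVN1 (-0.92 ± 0.15), DERL2 (-0.89 ± 0.13) and SEC61A1 (-0.51 ± 0.12). Between the lines, the ONC201 effect at 24 h in JeKo-1 was below that in parental Z138 in SYVN1 (-1.56 ± 0.14), DNAJB9 (-1.53 ± 0.15), DERL2 (-1.11 ± 0.12), XBP1 (-0.90 ± 0.11), EDEM1 (-0.89 ± 0.09), SEC61A1 (-0.73 ± 0.13), DERL1 (-0.70 ± 0.14) and ATF6 (-0.31 ± 0.11). SYVN1 fell in JeKo-1 and rose in parental Z138, while the other members that were called in both lines rose in both. The JeKo-1 dose is not given, each experiment had its own chip, and untreated cells were harvested at 0 h in JeKo-1 and at 24 h in Z138. The part of dose, chip and harvest time was not tested.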

How the results depend on the processing

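Processing choices moved small counts of members. At 12 h with ONC201, 3 members were called in the reported fit, 1 with the authors' normalized values (SYVN1 alone) and 1 to 2 when an array was left out, 1 without array 1 or array 2 of 12 h. With ONC201 in resistant Z138 the 0 members became 1, SEC61A1, without background correction, with an offset of 50, with the authors' values and with a trended, robust variance, where all genes called went from 46 to 580, 454, 65 and 702; normalizing each experiment alone, dropping the detection filter, the replicate block and leaving out any array each gave 0 genes. Between untreated Z138 lines the 0 members became 1 without background correction or with an offset of 50 (DNAJB9) and 2 with a trended, robust variance (DNAJB9 and SYVN1), with 566 genes called there and 205 without the detection filter, against 370. From 12 to 24 h of tunicamycin 3 members became 7 without background correction or with a trended, robust variance and 0 when any array was left out, while all genes called went from 385 to 767, 671 with an offset of 50, 186 without the detection filter and 1006 with that variance. With rapamycin 2 members became 5 with that variance. No called value changed direction among 1256 member values under other settings (21 calls lost, 37 gained) and 1010 with an array left out (68 lost, 6 gained), while 35 uncalled values near 0 did, such as DNAJB9 at 12 h (-0.09 to 0.10). Replicate numbers were shared between groups but did not pair arrays. The replicate block gave 2 members at 12 h, with 218 genes called in place of 337, 4 of 9 from 24 to 36 h and 4 from 12 to 24 h of tunicamycin. Signal over background limits ERN1 and SEL1L. Neither the block nor separate normalization was run for differences between experiments. The cause of these moves was not tested.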
